A study of Arabidopsis thaliana with 42 samples.

Results

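The 10 meiosis genes described here, SPO11-1 (AT3G13170), DMC1 (AT3G22880), ASY1 (AT1G67370), SYN1 (AT5G05490), ZYP1a (AT1G22260), ZYP1b (AT1G22275), SDS (AT1G14750), MSH4 (AT4G17380), MMD1 (AT1G66170) and SWI1 (AT5G51330), were chosen by locus from the 27925 genes of the flower bud expression table. All 10 are in that table, and all 10 passed the filter on low values (at least 0.5 TPM, the unit explained below, in at least 4 bud libraries), as did 24004 of all genes. They come from a study of Arabidopsis thaliana (Col-0) deficient in methylthioadenosine nucleosidase, the enzyme that returns the by-product of polyamine and ethylene synthesis to the methionine cycle. Of the 42 RNA sequencing libraries of the study, 24 were made from unopened flower buds, 4 in each of 6 groups. The groups are G3 on spermidine medium (Spd), G3 on mock medium (MS), mtn1-1mtn2-1 on Spd, mtn1-1mtn2-1 on MS, wild type (WT) on Spd and WT on MS. The genotype of G3 is given as mtn1-1mtn2-1 with the addition G3, which the labels do not explain, so both mutant groups are labelled with the same alleles of MTN1 (AT4G38800) and MTN2 (AT4G34840). Spermidine was supplied at 100 µM in the medium on which seedlings grew. Plants kept to maturity were moved to soil, and the labels do not say whether spermidine was given there. Each library came from pooled tissue. The libraries were prepared by either of 2 providers, with no record of which made which, so a provider cannot be told apart from a group.

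In meiosis, a diploid cell copies its chromosomes, breaks and repairs their DNA while homologous chromosomes align, and then divides a second time without a further round of copying. Cohesin holds sister chromatids together, a protein axis forms along them, and the synaptonemal complex joins the axes of homologues while a few of the breaks become crossovers. In flower buds this happens in a short stage of young anthers and ovules, so in whole buds these transcripts stand at low levels beside those of much more abundant tissues. In such bulk samples, fewer cells in meiosis, less RNA per cell and a change in cells outside meiosis cannot be told apart.

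The labelled genotypes were checked first. MTN1 lay between 6.11 and 9.09 TPM (a length-normalized share of all transcripts of a library) in the 8 G3 libraries and between 3.61 and 5.83 TPM in the 8 mtn1-1mtn2-1 libraries, against 113 to 127 TPM in the 8 WT libraries. MTN2 was at most 0.299 TPM in G3 and 0.164 TPM in mtn1-1mtn2-1, against 9.41 to 14.2 TPM in WT. These values follow the TPM table under its own column names. In the deposited count table of the buds, 16 of 24 columns, all those named WT or G3, match TPM columns in which the names WT and G3 are exchanged. If the names in the count table were right and those in the TPM table wrong, the values given below for WT and G3 would have to be exchanged. MTN1 would then stand at 6.11 to 9.09 TPM in WT and at 113 to 127 TPM in G3, against their labelled genotypes. Depth was about 18965550 to 23329021 fragments per library. The 6 genes of floral organ identity summed to 877 to 1290 TPM over the 24 libraries, and none was at 0 in all libraries of a group.

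DMC1 had the highest level of the 10 genes, with a median of 14.7 TPM over the 24 libraries, and its lowest value of 10.6 TPM lay above the highest of any other member, 4.56 TPM for ASY1. ZYP1b, SDS and ZYP1a followed at medians of 3.0, 2.96 and 2.93 TPM with widely overlapping ranges, and SYN1 had 2.06 TPM. ASY1 at 1.52, MSH4 at 1.26, SPO11-1 at 1.1 and MMD1 at 0.959 TPM also overlap their neighbours in this order. SWI1 was lowest at 0.507 TPM. In the 18 seedling libraries of the study, 3 each from 14-day-old seedlings of mtn1-1mtn2-5, mtn1-1mtn2-1 and WT on Spd or MS, a tissue without meiosis, the median was 0.174 TPM for SYN1, 0.0882 TPM for MMD1 and 0.446 TPM for ZYP1a. SPO11-1, however, had 1.01 TPM in seedlings and DMC1 7.76 TPM, so the buds stood above seedlings by 11.8 times for SYN1, 10.9 times for MMD1, 6.58 times for ZYP1a, 4.84 times for ZYP1b and 4.08 times for SDS, but by only 1.9 times for DMC1 and 1.09 times for SPO11-1. MSH4, SWI1 and ASY1 lay between these, at 2.58, 2.16 and 1.7 times. The bud and seedling tables were normalized separately, so these ratios are descriptions with no test. They set medians over all groups side by side, with G3 only in buds and mtn1-1mtn2-5 only in seedlings. Few fragments stand behind the low members: a median of 15.9 per library for SPO11-1 and 14.9 for SWI1, against 285 for DMC1. Counting error alone then gives a coefficient of variation of 25.1% for SPO11-1 and 25.9% for SWI1, and their observed spread over the 24 libraries was 27.4% and 27.5%.

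**Figure D1:**
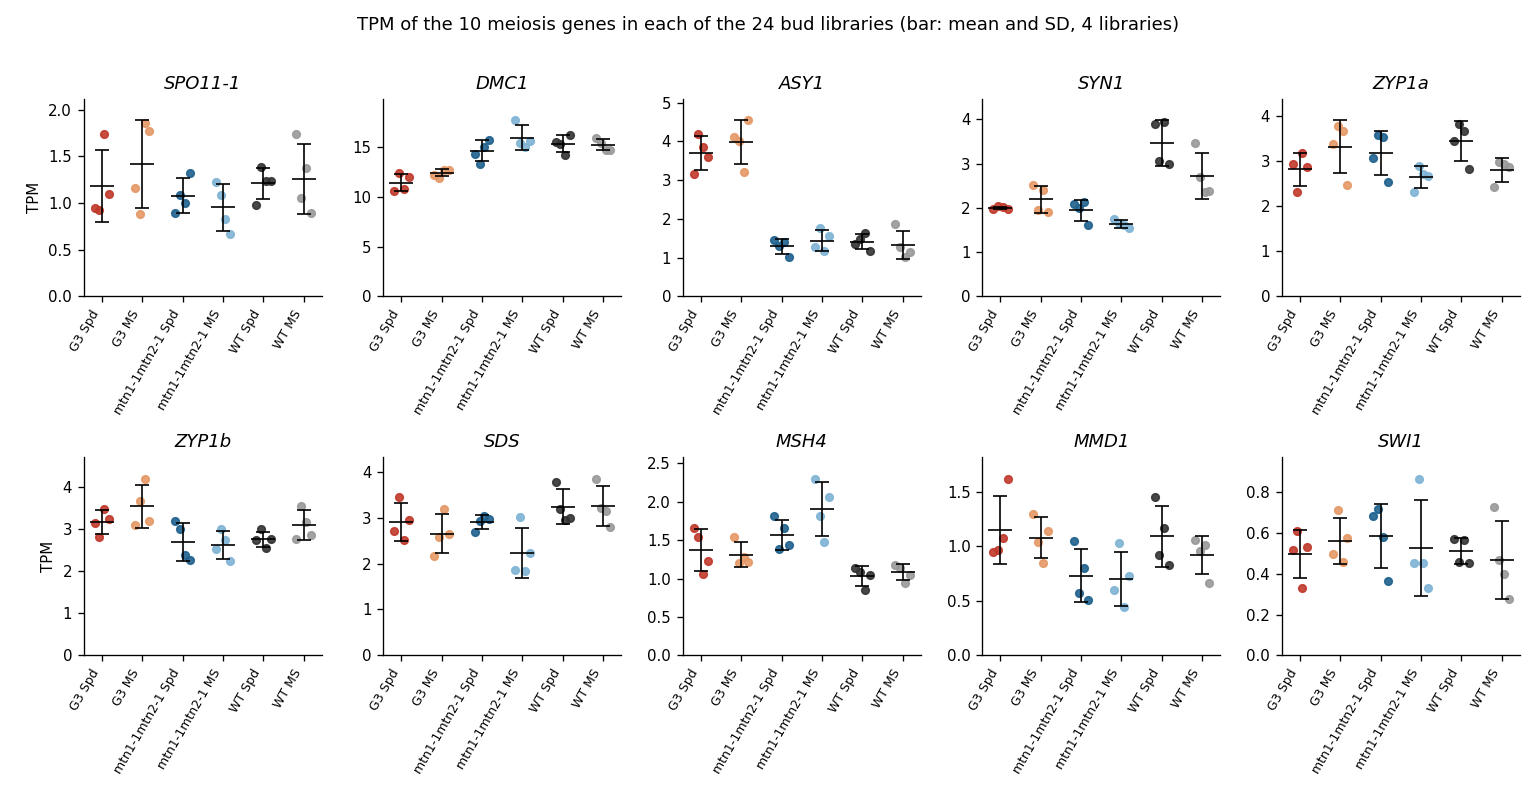
TPM (vertical axis, from 0, a scale of its own for each gene) of each of the 10 genes in each of the 24 bud libraries, by group, with the mean and SD of 4 libraries. The ASY1 points of all 8 G3 libraries, at 3.15 to 4.56 TPM, lie above all other ASY1 points, and the DMC1 points of G3, at 10.6 to 12.7 TPM, lie below all other DMC1 points.

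The 10 genes did not move as one. Levels were compared with limma on log2(TPM + 0.5) over all 24004 genes, with Benjamini-Hochberg adjustment, and a gene was called at an adjusted p under 0.05. In G3 buds against WT, 1 of the 10 rose and 2 fell on Spd, where 30.7% of all genes were called, 15.3% higher and 15.4% lower. On MS 1 rose and 1 fell, against 34.0% of all genes, 15.3% higher and 18.7% lower. In mtn1-1mtn2-1 against WT, 1 rose and 1 fell on Spd, against 30.9% of all genes, 14.8% higher and 16.1% lower. On MS 1 rose and 2 fell, against 37.4% of all genes, 13.0% higher and 24.3% lower. In G3 against mtn1-1mtn2-1, 1 rose and 1 fell on Spd, against 21.4% of all genes, 11.0% higher and 10.3% lower. On MS 2 rose and 2 fell, against 25.1% of all genes, 16.7% higher and 8.40% lower. With 2 to 4 of 10 called, the members' shares did not stand far from those of all genes, and each comparison held members that rose and members that fell. The median log2 difference of the 10 was -0.04 on Spd and 0.15 on MS for G3 against WT, and -0.10 and -0.13 for mtn1-1mtn2-1 against WT, beside medians over all genes of 0.01, -0.02, 0.01 and -0.06. For G3 against mtn1-1mtn2-1 it was 0.02 on Spd and 0.295 on MS, beside 0.02 and 0.06. The comparisons with WT share the WT libraries, and each mutant group enters a pair of comparisons, so they are not independent of each other. SPO11-1, ZYP1a, MMD1 and SWI1 were called in none of them by limma.

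ASY1 stood apart in G3. It encodes the HORMA-domain protein of the meiotic chromosome axis, needed for synapsis and for repair from the homologue. ASY1 had 3.15, 4.18, 3.87 and 3.59 TPM in G3 on Spd, against 1.36, 1.48, 1.64 and 1.18 TPM in WT on Spd. On MS it had 4.12, 4.0, 3.22 and 4.56 TPM in G3, against 1.86, 1.27, 1.03 and 1.16 TPM in WT. In mtn1-1mtn2-1 it lay between 1.03 and 1.45 TPM on Spd and between 1.18 and 1.77 TPM on MS, overlapping with WT on each medium. All 8 G3 libraries lay above all other 16 libraries. The mean was 2.62 times that of WT on Spd and 2.99 times on MS, and 2.86 and 2.75 times that of mtn1-1mtn2-1. On the log2(TPM + 0.5) scale, which understates the change of low genes, the rise over WT was 1.13 ± 0.15 on Spd and 1.3 ± 0.15 on MS (SE), with adjusted p values of 3.62e-06 and 4.66e-07 by limma. Over mtn1-1mtn2-1 it was 1.23 on Spd and 1.21 on MS, with adjusted p values of 2.79e-06 and 2.94e-06. The difference of mtn1-1mtn2-1 from WT was -0.09 on Spd (95% interval -0.40 to 0.21) and 0.10 on MS (-0.21 to 0.40), and was not called. ASY1 also had a median of 0.896 TPM in seedlings, and which cells of the bud hold its rise in G3 was not tested.

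ASY1 lies on the minus strand of chromosome 1, at chr1:25239117-25243837 in TAIR10.1, and 214 bases of it are shared with AT1G67365, a long noncoding RNA gene of the opposite strand. The strand setting of the authors' counting is not stated, so reads of the shared stretch cannot be told apart. AT1G67365 averaged 4.21 ± 0.58 TPM in G3 and 5.44 ± 0.63 TPM in WT on Spd, and 4.79 ± 0.59 TPM in G3 and 6.63 ± 0.73 TPM in WT on MS (SD, n = 4 each), a fall of 0.33 and 0.43 on the log2 scale with adjusted p values of 0.0432 and 0.00928 by limma. In mtn1-1mtn2-1 it averaged 4.31 ± 0.73 TPM on Spd and 3.77 ± 0.43 TPM on MS. Between G3 and mtn1-1mtn2-1 its difference was -0.03 on Spd (adjusted p = 0.905 by limma) and 0.31 on MS (95% interval 0.05 to 0.56, adjusted p = 0.072), and neither was called. The 250 bases before the start of ASY1 are printed here from the RefSeq sequence of TAIR10.1, because ASY1 is the member that moved most, in its reading direction from 5′ to 3′. The capitals mark the letters CTAAATAT.
ASY1 (chr1:25243838-25244087, minus strand): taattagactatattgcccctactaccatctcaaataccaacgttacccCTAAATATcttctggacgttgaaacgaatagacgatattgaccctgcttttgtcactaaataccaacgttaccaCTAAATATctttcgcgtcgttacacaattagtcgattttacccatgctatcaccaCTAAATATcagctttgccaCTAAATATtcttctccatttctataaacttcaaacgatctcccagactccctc
These letters stand 4 times on this strand, at 201, 127, 72 and 53 bases before the start. The motif was chosen by reading this sequence, so its count here is a description. CTAAATAT was found on either strand in 2.96% of the 27443 promoters of the same length before protein-coding genes. Read in the direction of each gene, it stood 4 or more times in 1 of them, that of ASY1. Copies on the opposite strand were not counted for this. CTAAATAT was in none of the other 9 members.

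DMC1, the recombinase that carries out strand exchange with the homologue in meiosis, was lower in G3. It had 10.6, 12.4, 10.8 and 12.0 TPM in G3 on Spd, against 15.5, 15.3, 14.2 and 16.2 TPM in WT on Spd. On MS it had 12.2, 11.9, 12.7 and 12.7 TPM in G3, against 15.9, 15.4, 14.7 and 14.7 TPM in WT. In mtn1-1mtn2-1 it had 14.3, 13.3, 15.0 and 15.7 TPM on Spd and 17.7, 15.4, 15.0 and 15.6 TPM on MS. Every G3 library lay below every other library. The mean in G3 was 0.749 times that of WT on Spd and 0.817 times on MS, a log2 difference of -0.40 ± 0.07 and -0.28 ± 0.07 (SE) with adjusted p values of 1e-04 and 0.00269 by limma. Against mtn1-1mtn2-1 it fell by 0.34 on Spd and by 0.35 on MS, with adjusted p values of 0.00113 and 0.000751. Over the 24 libraries the log2 levels of DMC1 and ASY1 had a Pearson r of -0.83, the lowest of the 45 pairs of members. As G3 stands apart in both genes, this value describes the distance between groups. DMC1 also had a median of 7.76 TPM in seedlings, and which cells of the bud hold its fall in G3 was not tested.

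SYN1, also called REC8, is the meiosis-specific cohesin subunit that holds sister chromatids together until the divisions. SYN1 had 1.98, 2.04, 2.01 and 1.98 TPM in G3 on Spd, and 2.08, 1.99, 2.14 and 1.61 TPM in mtn1-1mtn2-1 on Spd, against 3.9, 3.07, 3.94 and 2.98 TPM in WT on Spd. On MS it had 2.51, 1.95, 2.4 and 1.9 TPM in G3, and 1.76, 1.66, 1.61 and 1.54 TPM in mtn1-1mtn2-1, against 3.47, 2.7, 2.36 and 2.38 TPM in WT. On Spd both mutant groups lay wholly below WT. On MS the mtn1-1mtn2-1 libraries did, and those of G3 overlapped with WT. In mtn1-1mtn2-1 SYN1 fell by 0.69 ± 0.12 on Spd and by 0.58 ± 0.12 on MS (log2, SE), to 0.563 and 0.603 times the WT mean, with adjusted p values of 0.000191 and 0.000748 by limma. In G3 it fell by 0.66 on Spd, with an adjusted p of 0.000284, while the difference on MS was -0.26 (95% interval -0.51 to -0.0015) with an adjusted p of 0.114. Against mtn1-1mtn2-1 on MS, G3 was higher in 4 of 4 libraries by 0.32 (95% interval 0.07 to 0.58, adjusted p = 0.0568), which was not called by limma and was called by edgeR on the counts, with an adjusted p of 0.0262, and over the alternatives lay between 0.025 and 0.163. The test of whether the spermidine difference of SYN1 was unlike in G3 and WT gave -0.40 with an adjusted p of 0.8. SYN1 shares 65 bases with AT5G05480, a gene of the opposite strand at a median of 17.0 TPM. AT5G05480 rose in G3 against WT on MS by 0.23 on the log2 scale (adjusted p = 0.0203 by limma). It was not called in the other comparisons with WT, and its part in the SYN1 result was not tested.

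SWI1 acts earliest of the 10, in the establishment of sister cohesion and the entry into meiosis. Its 24 values ran between 0.275 and 0.867 TPM, with means of 0.498 TPM in G3, 0.587 TPM in mtn1-1mtn2-1 and 0.512 TPM in WT on Spd, and of 0.56, 0.525 and 0.469 TPM in these genotypes on MS. All groups overlapped. The log2 differences between genotypes lay between -0.12 and 0.14, and each 95% interval includes 0.

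ZYP1a and ZYP1b are neighbouring copies that encode the transverse filament of the synaptonemal complex. Their coding sequences of 2616 and 2571 bases are 90.4% identical over their alignment, and 10 of the 2517 stretches of 100 bases in ZYP1a occur unchanged in ZYP1b (0.397%), so most fragments can be told apart and a few cannot. ZYP1b had 3.11, 3.69, 4.21 and 3.19 TPM in G3 on MS, against 2.54, 3.02, 2.75 and 2.24 TPM in mtn1-1mtn2-1 on MS. The groups did not overlap, and the rise of 0.37 ± 0.12 (log2, SE) had an adjusted p of 0.0271 by limma. That call was lost under 7 of 16 alternatives. Among them were edgeR on the counts, with an adjusted p of 0.112, the fit of only the compared groups, and fits without any of 4 single libraries. On Spd the difference between these genotypes was 0.20 and was not called. Over all alternatives the adjusted p on MS lay between 0.0189 and 0.14. ZYP1a ranged between 2.31 and 3.82 TPM, and its groups overlapped in every comparison. ZYP1a also shares 137 bases with AT1G22250 on the opposite strand, at a median of 21.7 TPM.

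SPO11-1 encodes the topoisomerase-like protein that makes the DNA breaks which start recombination. SPO11-1 had 0.885 to 1.86 TPM in G3, 0.666 to 1.32 TPM in mtn1-1mtn2-1 and 0.893 to 1.74 TPM in WT, and its groups overlapped in every comparison. The widest difference was 0.38 between G3 and mtn1-1mtn2-1 on MS (95% interval -0.02 to 0.78, adjusted p = 0.158 by limma). SPO11-1 shares 14 bases with AT3G13160 on the same strand, whose median was 22.7 TPM. AT3G13160 rose in G3 against WT by 0.56 on Spd and 0.57 on MS (adjusted p = 2.07e-05 and 1.45e-05 by limma). Against mtn1-1mtn2-1 it rose in G3 by 0.29 on Spd and 0.39 on MS (adjusted p = 0.0145 and 0.00139). In mtn1-1mtn2-1 against WT it rose by 0.27 on Spd (adjusted p = 0.0161) and was not called on MS. Its part in the SPO11-1 values was not tested.

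SDS encodes a cyclin-like protein of meiosis that is needed for DMC1 to act. On MS it had 1.85, 3.02, 1.84 and 2.22 TPM in mtn1-1mtn2-1, against 3.85, 3.21, 3.15 and 2.8 TPM in WT. A single mtn1-1mtn2-1 library reached into the WT range, and the fall of 0.47 ± 0.14 (log2, SE) had an adjusted p of 0.00849 by limma. By edgeR on the counts the adjusted p was 0.216 and by DESeq2 0.242, and over all alternatives it lay between 0.00103 and 0.242. The call was lost under 3 of 16 alternatives, among them both count-based tools. On Spd the means were 2.9 TPM in mtn1-1mtn2-1 and 3.24 TPM in WT, and SDS was not called. In G3 SDS averaged 2.91 TPM on Spd and 2.65 TPM on MS and was not called against either genotype.

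MSH4 encodes the MutS-related protein that, with MSH5, stabilizes recombination intermediates on their way to crossovers. On Spd MSH4 had 1.81, 1.39, 1.66 and 1.44 TPM in mtn1-1mtn2-1, against 1.14, 1.08, 0.849 and 1.05 TPM in WT. On MS it had 2.3, 1.82, 1.47 and 2.06 TPM in mtn1-1mtn2-1, against 1.18, 1.14, 0.947 and 1.05 TPM in WT. No mtn1-1mtn2-1 library overlapped WT on the same medium. The rise was 0.44 ± 0.13 on Spd and 0.60 ± 0.13 on MS (log2, SE), 1.53 and 1.77 times the WT mean, with adjusted p values of 0.0149 and 0.00104 by limma. The call on Spd was lost under 3 of 16 alternatives. These were limma without 1 of the mtn1-1mtn2-1 Spd libraries (replicate 1, adjusted p = 0.0508), without 1 of the WT Spd libraries (replicate 3, 0.0542) and with only the compared groups. Over all alternatives its adjusted p lay between 0.0068 and 0.0542. G3 had 1.66, 1.54, 1.06 and 1.23 TPM on Spd and 1.54, 1.2, 1.28 and 1.21 TPM on MS. It overlapped with both genotypes on Spd, while on MS it overlapped with mtn1-1mtn2-1 and lay just above all WT libraries. G3 was not called against WT, with differences of 0.28 on Spd (95% interval 0.01 to 0.56, adjusted p = 0.111) and 0.19 on MS (-0.08 to 0.47, adjusted p = 0.276). Against mtn1-1mtn2-1 on MS it fell by 0.41, with an adjusted p of 0.0267 by limma. That call was lost under 6 of 16 alternatives, without any of 5 single libraries and with only the compared groups. Its adjusted p lay between 0.00304 and 0.108 over all alternatives. MSH4 shares 44 bases with AT4G17390 on the opposite strand, whose median was 592 TPM, far above that of MSH4. AT4G17390 averaged 640 ± 89.8 TPM in mtn1-1mtn2-1 and 543 ± 33.0 TPM in WT on MS (SD, n = 4 each), a log2 rise of 0.23 with an adjusted p of 0.029 by limma, and its part in the MSH4 result was not tested.

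MMD1, also called DUET, encodes a PHD-finger protein of male meiocytes needed to complete the meiotic divisions. MMD1 had 0.945, 0.964, 1.08 and 1.62 TPM in G3 on Spd, against 1.05, 0.573, 0.799 and 0.51 TPM in mtn1-1mtn2-1 on Spd. On MS it had 1.3, 1.04, 0.849 and 1.14 TPM in G3, against 0.6, 1.03, 0.445 and 0.73 TPM in mtn1-1mtn2-1. The groups overlapped on both media. The differences of 0.43 (95% interval 0.05 to 0.80) and 0.41 (0.04 to 0.79) had adjusted p values of 0.0989 and 0.101 by limma and were not called. In WT MMD1 averaged 1.09 TPM on Spd and 0.921 TPM on MS.

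**Figure D2:**
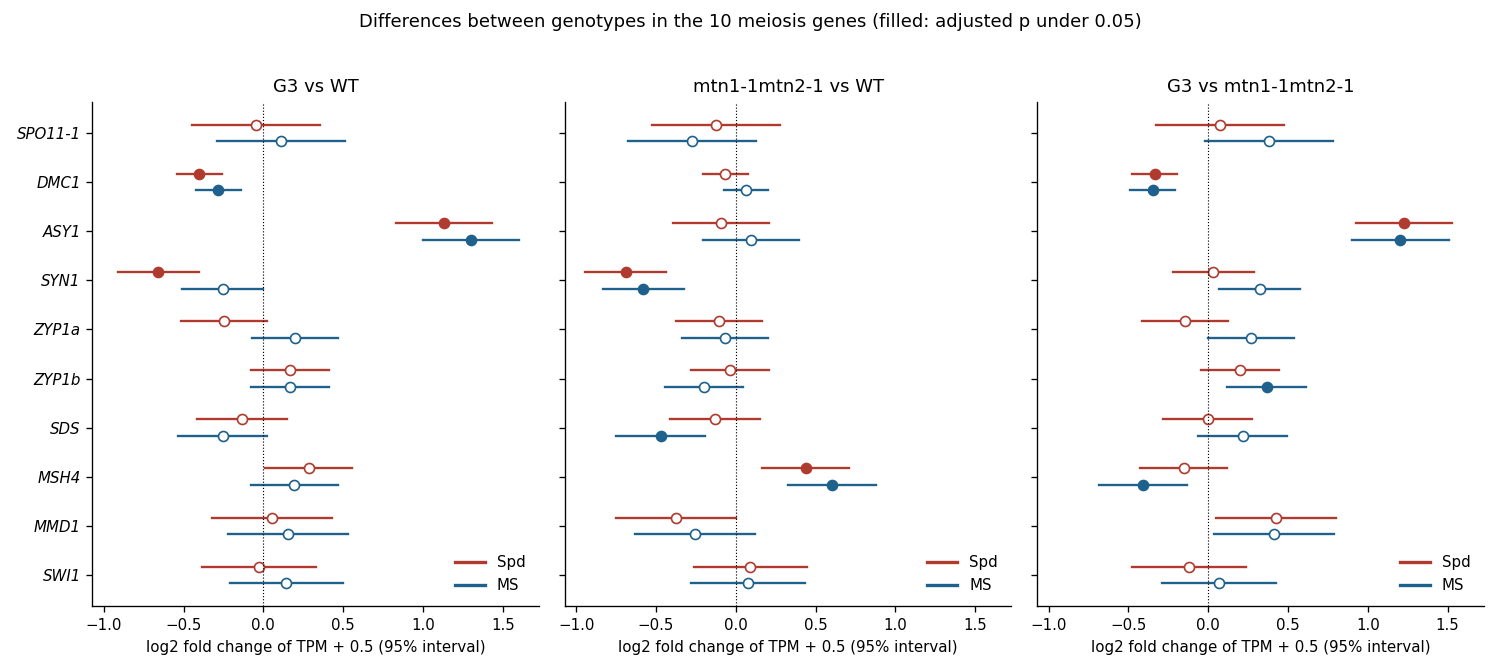
Log2 fold change of TPM + 0.5 with its 95% interval for the 10 genes in G3 against WT, mtn1-1mtn2-1 against WT and G3 against mtn1-1mtn2-1, on Spd (red) and MS (blue), 4 libraries per group. Filled points passed an adjusted p of 0.05: ASY1 lies near 1.2 in both comparisons of G3, SYN1 below 0 and MSH4 above 0 in mtn1-1mtn2-1 against WT.

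The 250 bases before the start of DMC1, ZYP1b, SDS and MSH4, the other members called in at least 1 comparison whose stretch holds no other gene, are given here in the same way. The capitals mark the G-box CACGTG.
DMC1 (chr3:8100933-8101182, minus strand): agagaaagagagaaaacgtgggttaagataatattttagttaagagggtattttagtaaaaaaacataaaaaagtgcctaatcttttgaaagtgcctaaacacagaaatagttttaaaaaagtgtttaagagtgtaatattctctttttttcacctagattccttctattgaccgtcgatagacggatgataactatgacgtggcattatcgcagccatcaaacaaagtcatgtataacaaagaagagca
ZYP1b (chr1:7866817-7867066, plus strand): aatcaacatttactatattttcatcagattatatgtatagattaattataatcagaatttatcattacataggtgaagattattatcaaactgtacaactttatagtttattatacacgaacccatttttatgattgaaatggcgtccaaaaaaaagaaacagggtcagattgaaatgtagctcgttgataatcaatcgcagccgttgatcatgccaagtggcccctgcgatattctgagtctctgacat
SDS (chr1:5082537-5082786, minus strand): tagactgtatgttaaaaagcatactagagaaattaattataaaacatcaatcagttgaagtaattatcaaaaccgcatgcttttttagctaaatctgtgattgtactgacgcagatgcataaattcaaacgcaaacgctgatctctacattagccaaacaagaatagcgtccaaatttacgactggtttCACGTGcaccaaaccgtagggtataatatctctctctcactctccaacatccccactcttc
MSH4 (chr4:9708434-9708683, plus strand): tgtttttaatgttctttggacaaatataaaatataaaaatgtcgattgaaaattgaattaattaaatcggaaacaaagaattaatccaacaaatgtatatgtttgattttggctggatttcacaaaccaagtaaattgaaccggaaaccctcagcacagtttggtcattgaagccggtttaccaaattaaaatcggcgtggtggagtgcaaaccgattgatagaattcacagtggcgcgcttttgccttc
The search, on both strands, covered the G-box CACGTG, the evening element AAAATATCT, the CRT/DRE core CCGAC, the telo-box AAACCCTA and the E2F site TTTCCCGC, a list also drawn up with results of these data known. A G-box was found in 2 of the 10 members, SDS and ZYP1a, and in 6.49% of the 27443 promoters. The CRT/DRE core was found in 1 member, ZYP1a, and in 12.0% of promoters. The evening element, the telo-box and the E2F site were found in 0 of the 10 members and in 2.36%, 4.49% and 0.619% of promoters. The stretches before SYN1 and ZYP1a overlap another gene and are not printed.

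Spermidine in the medium went with no called change in any of the 10 genes. Between Spd and MS, 0 of the 10 were called by limma, edgeR or DESeq2 in G3, in mtn1-1mtn2-1 or in WT, where limma called 1.24%, 0.0542% and 0.0833% of all genes. At an unadjusted p under 0.05 limma counted 0 of the 10 in G3, 1 in mtn1-1mtn2-1 and 1 in WT. In mtn1-1mtn2-1 it was SDS, at 2.9 TPM on Spd and 2.23 TPM on MS (log2 difference 0.34, 95% interval 0.06 to 0.62, adjusted p = 0.28). In WT it was SYN1, at 3.47 TPM on Spd and 2.73 TPM on MS (0.30, 95% interval 0.05 to 0.56, adjusted p = 0.361). The difference for DMC1, the member with the narrowest intervals, was -0.11 in G3 (95% interval -0.25 to 0.03), -0.12 in mtn1-1mtn2-1 (-0.26 to 0.02) and 0.01 in WT (-0.13 to 0.15), and for ASY1 it was -0.09 (-0.39 to 0.21), -0.11 (-0.41 to 0.19) and 0.08 (-0.22 to 0.38). The spermidine difference was also compared between each mutant group and WT, where limma, edgeR and DESeq2 called 0 of the 10. Limma called 0% and 0.0250% of all genes there, and at an unadjusted p under 0.05 it counted 2 of the 10 for G3, SYN1 and ZYP1a, and 0 for mtn1-1mtn2-1.

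**Figure D3:**
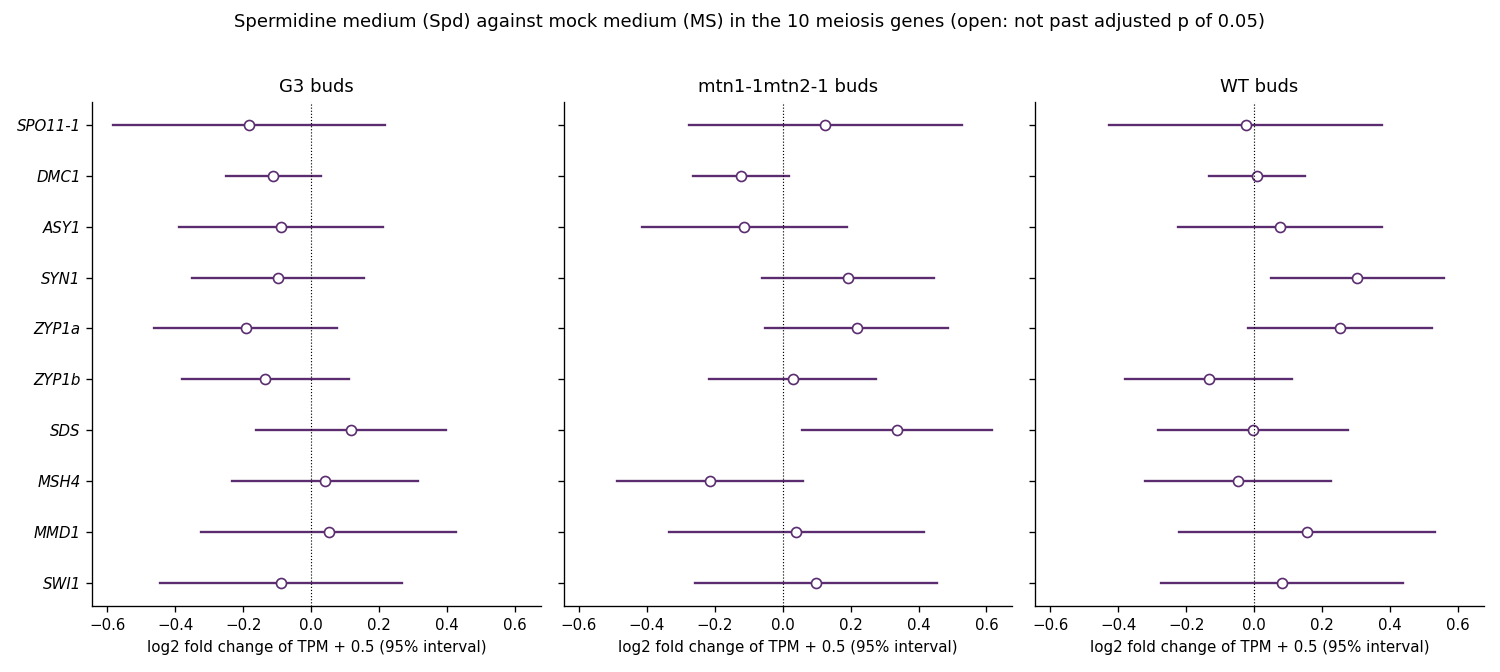
Log2 fold change of TPM + 0.5 between Spd and MS with its 95% interval for the 10 genes in G3, mtn1-1mtn2-1 and WT buds, 4 libraries per group. All 30 points are open, since no adjusted p was under 0.05, and 28 of the 30 intervals include 0.

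The other 55 genes of meiosis, in 5 lists by role, all passed the filter, and most of them were not called. In G3 against WT, 12 rose and 1 fell on Spd, and 12 rose and 5 fell on MS. In mtn1-1mtn2-1 against WT, 10 rose and 0 fell on Spd, and 6 rose and 4 fell on MS. Of all genes, 15.3% and 15.3% rose in G3 on Spd and MS, and 14.8% and 13.0% in mtn1-1mtn2-1. In the same order, 15.4% and 18.7% of all genes fell in G3, and 16.1% and 24.3% in mtn1-1mtn2-1. Under median ratio scaling the count for mtn1-1mtn2-1 on MS was 12 rises and 4 falls, and over all genes that scaling turned 3128 rises and 5838 falls into 4511 and 4571. The same scaling turned 3998 rises and 2017 falls between G3 and mtn1-1mtn2-1 on MS into 2967 and 2794. Between Spd and MS, limma called 0 of the 55 within any genotype.

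The list with the most rises was that of strand exchange and repair, the partners and accessory factors of DMC1. In G3 against WT 7 of its 11 genes rose on Spd and 6 on MS, and 0 fell, while DMC1 itself fell. Of all genes, 15.3% rose in G3 on either medium, and 15.4% and 18.7% fell on Spd and MS. The median log2 difference of the 11 was 0.31 on Spd and 0.18 on MS, beside 0.01 and -0.02 over all genes. MND1, which with HOP2 helps DMC1 to exchange strands, averaged 11.8 ± 0.54 TPM in G3 and 6.99 ± 0.45 TPM in WT on Spd, and 11.8 ± 0.75 TPM in G3 and 7.09 ± 0.57 TPM in WT on MS (SD, n = 4 each). These are rises of 0.72 and 0.70 on the log2 scale with adjusted p values of 8.3e-06 and 9.34e-06 by limma. XRCC3, a factor of recombinational repair, rose by 0.70 on Spd and 0.61 on MS, with adjusted p values of 0.00292 and 0.00789. In mtn1-1mtn2-1 against WT 6 of the 11 rose on Spd and 3 on MS, and 0 fell. Of all genes, 14.8% and 13.0% rose there on Spd and MS, and 16.1% and 24.3% fell. The median log2 difference of the 11 was 0.28 on Spd and 0.12 on MS, beside 0.01 and -0.06 over all genes.

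Among the genes of break formation, SPO11-2, the partner of SPO11-1, fell on MS by 0.50 in G3 and by 0.53 in mtn1-1mtn2-1 against WT, with means of 0.314, 0.292 and 0.648 TPM in G3, mtn1-1mtn2-1 and WT and adjusted p values of 0.0319 and 0.0215 by limma. The fall in mtn1-1mtn2-1 was not called by edgeR on the counts, where 0 of the 6 genes of this list were lower. On Spd SPO11-2 averaged 0.507, 0.45 and 0.535 TPM in these genotypes and was not called. PRD2, also needed for breaks, rose by 0.38 in mtn1-1mtn2-1 on MS, with an adjusted p of 0.00346. Of the 15 genes of crossover formation and limitation, HEI10, an E3 ligase that marks crossover sites, averaged 21.9 ± 1.47 TPM in G3 and 11.0 ± 2.66 TPM in mtn1-1mtn2-1, against 19.6 ± 1.91 TPM in WT on MS (SD, n = 4 each). HEI10 fell by 0.83 in mtn1-1mtn2-1 against WT on MS, with an adjusted p of 4.3e-05 by limma. In G3 against mtn1-1mtn2-1 it rose by 0.52 on Spd and 0.98 on MS, with adjusted p values of 0.00725 and 1.39e-05. SHOC1, a further crossover factor, rose by 0.50 in G3 against mtn1-1mtn2-1 on Spd (adjusted p = 0.039), and FIGL1, which limits crossovers, fell by 0.37 in G3 against WT on MS (adjusted p = 0.00637).

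Among 12 genes of the meiotic cell cycle and divisions, MEI1, needed for chromosome integrity in male meiosis, rose in mtn1-1mtn2-1 against WT by 0.64 on Spd and 0.59 on MS, with adjusted p values of 7.06e-07 and 9.31e-07 by limma. MEI1 averaged 11.0 and 10.8 TPM in mtn1-1mtn2-1 on Spd and MS, against 6.88 and 6.97 TPM in WT. TDM1, needed to leave meiosis after the second division, rose by 0.62 in G3 against mtn1-1mtn2-1 on MS (adjusted p = 0.00954), and PS1, which shapes the spindles of that division, fell by 0.30 (adjusted p = 0.0199). Of the 11 genes of axis and cohesion, the list that ASY1 and SYN1 would join, 2 rose and 1 fell in G3 on Spd and 1 rose on MS, beside 15.3% of all genes higher on either medium and 15.4% lower on Spd. PANS1, which protects cohesion, fell by 0.28 in G3 on Spd (adjusted p = 0.00747). In mtn1-1mtn2-1 1 gene of that list rose on each medium, beside 14.8% of all genes on Spd and 13.0% on MS, so the counts of this list lay near or below the shares of all genes.

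Markers of anther stages were read beside these results as a sign of bud stage. The 17 markers of maturing pollen, of which 16 passed the filter, summed to 1070 to 1520 TPM in G3 and 737 to 1170 TPM in mtn1-1mtn2-1 on Spd, against 1450 to 2100 TPM in WT. On MS the sums were 1160 to 1450 TPM in G3 and 589 to 822 TPM in mtn1-1mtn2-1, against 1550 to 2030 TPM in WT. In mtn1-1mtn2-1 11 of the 16 fell on each medium and 0 rose, with median log2 differences of -0.89 on Spd and -1.05 on MS, beside 0.01 and -0.06 over all genes, of which 16.1% and 24.3% fell. In G3 9 fell on Spd and 7 on MS, and 0 rose, beside 15.4% and 18.7% of all genes lower. In G3 against mtn1-1mtn2-1 2 of the 16 rose on Spd and 11 on MS, and 0 fell, beside 11.0% and 16.7% of all genes higher. VGDH2, a pollen pectin methylesterase, averaged 204 ± 28.6 TPM in mtn1-1mtn2-1 on MS, against 518 ± 52.5 TPM in WT (SD, n = 4 each), a fall of 1.35 with an adjusted p of 4.66e-07 by limma. ANX2, a receptor kinase of pollen tubes, fell by 1.99 on Spd and by 2.35 on MS in mtn1-1mtn2-1, with adjusted p values of 0.000156 and 1.53e-05.

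Of the 19 markers of the tapetum, the layer that feeds developing pollen, 0 rose and 1 fell in G3 on Spd and 7 rose and 2 fell on MS, and in mtn1-1mtn2-1 3 rose and 1 fell on Spd and 4 rose and 2 fell on MS. Of all genes, 15.3% rose in G3 on either medium and 15.4% and 18.7% fell on Spd and MS, while in mtn1-1mtn2-1 14.8% and 13.0% rose and 16.1% and 24.3% fell, so most of these tapetum counts lay near or below the background. In G3 against mtn1-1mtn2-1 0 tapetum markers were called on Spd, and 3 rose and 1 fell on MS. Their sums were 1390 to 1790 TPM in G3, 1420 to 2110 TPM in mtn1-1mtn2-1 and 1450 to 1680 TPM in WT on Spd, and 1510 to 1870, 1320 to 1910 and 1220 to 1640 TPM in these genotypes on MS. The median log2 difference of the 19 from WT was 0.04 on Spd and 0.30 on MS in G3. In mtn1-1mtn2-1 it was -0.02 and 0.22. Over all genes these medians were 0.01, -0.02, 0.01 and -0.06. The called tapetum markers with the largest changes from WT, QRT3 and DYT1, both fell, while more markers rose than fell on MS. QRT3, which frees pollen grains from their tetrads, fell by 0.58 in G3 and by 0.72 in mtn1-1mtn2-1 on Spd (adjusted p = 0.000171 and 2.09e-05 by limma). DYT1, an early tapetum regulator, fell by 0.87 in G3 on MS (adjusted p = 0.0119 by limma). Its level was low there, at 0.682 ± 0.376 TPM in G3 and 1.66 ± 0.623 TPM in WT (SD, n = 4 each), beside the filter of 0.5 TPM. On Spd DYT1 averaged 1.43 TPM in G3 and 1.77 TPM in WT and was not called. Of the 3 early anther markers, 1 fell in G3 against WT on Spd and 2 on MS, beside 15.4% and 18.7% of all genes. None rose, and in mtn1-1mtn2-1 0 were called. SPL, which starts the formation of meiocytes, averaged 11.9 ± 1.8 TPM in G3 and 18.7 ± 2.76 TPM in WT on Spd (SD, n = 4 each) and fell by 0.63 (adjusted p = 0.000213 by limma). TPD1, a signal for tapetum fate, fell by 0.59 in G3 on MS (adjusted p = 0.00262 by limma). On Spd TPD1 averaged 5.32 TPM in G3 and 5.48 TPM in WT. EMS1, the highest of the 3, averaged 26.9 TPM in G3 and 26.2 TPM in WT on Spd, and 26.5 and 26.8 TPM on MS. The early anther sums were 40.5 to 48.4 TPM in G3, 48.3 to 54.7 TPM in mtn1-1mtn2-1 and 48.0 to 54.8 TPM in WT on Spd, and 39.7 to 42.8, 44.2 to 53.4 and 48.5 to 50.3 TPM on MS. The part of these marker differences in the results for the 10 meiosis genes was not tested.

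Lists for other tissues of the bud hold 3 to 6 genes each, and a single call in such a list lies near the shares of all genes given above. Of the 6 genes of floral organ identity 4 fell in G3 against WT on each medium, and 2 on Spd and 5 on MS fell in mtn1-1mtn2-1, beside 15.4% and 18.7% of all genes lower in G3 and 16.1% and 24.3% in mtn1-1mtn2-1. PI, which specifies petals and stamens, fell by 0.57 and 0.67 in G3 on Spd and MS (adjusted p = 3.83e-08 and 2.7e-09 by limma). Of the 6 genes of ovule and carpel 3 rose in G3 on each medium, among them ANT, a regulator of ovule growth, and in mtn1-1mtn2-1 1 rose on Spd and 1 fell on MS, beside 15.3% of all genes higher in G3 on either medium, 14.8% higher in mtn1-1mtn2-1 on Spd and 24.3% lower on MS. In G3 1 also fell on Spd, with the largest change among the called genes of this list there. CRC, a regulator of carpel shape, rose by 0.38 on MS (adjusted p = 0.00119). Of 4 genes of dividing cells 1 fell in G3 on each medium, and in mtn1-1mtn2-1 1 rose on Spd and 0 were called on MS. KNOLLE, of cell plate formation, fell by 0.36 and 0.46 in G3 on Spd and MS (adjusted p = 0.00889 and 0.00108). Of 3 genes of green tissue 1 fell in G3 on each medium, and in mtn1-1mtn2-1 1 fell on Spd and 1 rose on MS. RCA, the activase of Rubisco, fell by 1.47 and 1.42 in G3 (adjusted p = 3.5e-08 and 4.57e-08 by limma). LHCB1.3, a light-harvesting protein, rose by 0.76 in mtn1-1mtn2-1 on MS (adjusted p = 2.6e-05 by limma). In G3 against mtn1-1mtn2-1, 2 floral organ identity genes rose and 4 fell on Spd, and 2 rose and 1 fell on MS. Of ovule and carpel genes 2 rose on Spd and 3 on MS. Of dividing cell genes 3 fell on Spd and 2 on MS, and of green tissue genes 1 fell on Spd and 3 on MS. Of all genes, 11.0% and 16.7% rose on Spd and MS, and 10.3% and 8.40% fell.

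**Figure D4:**
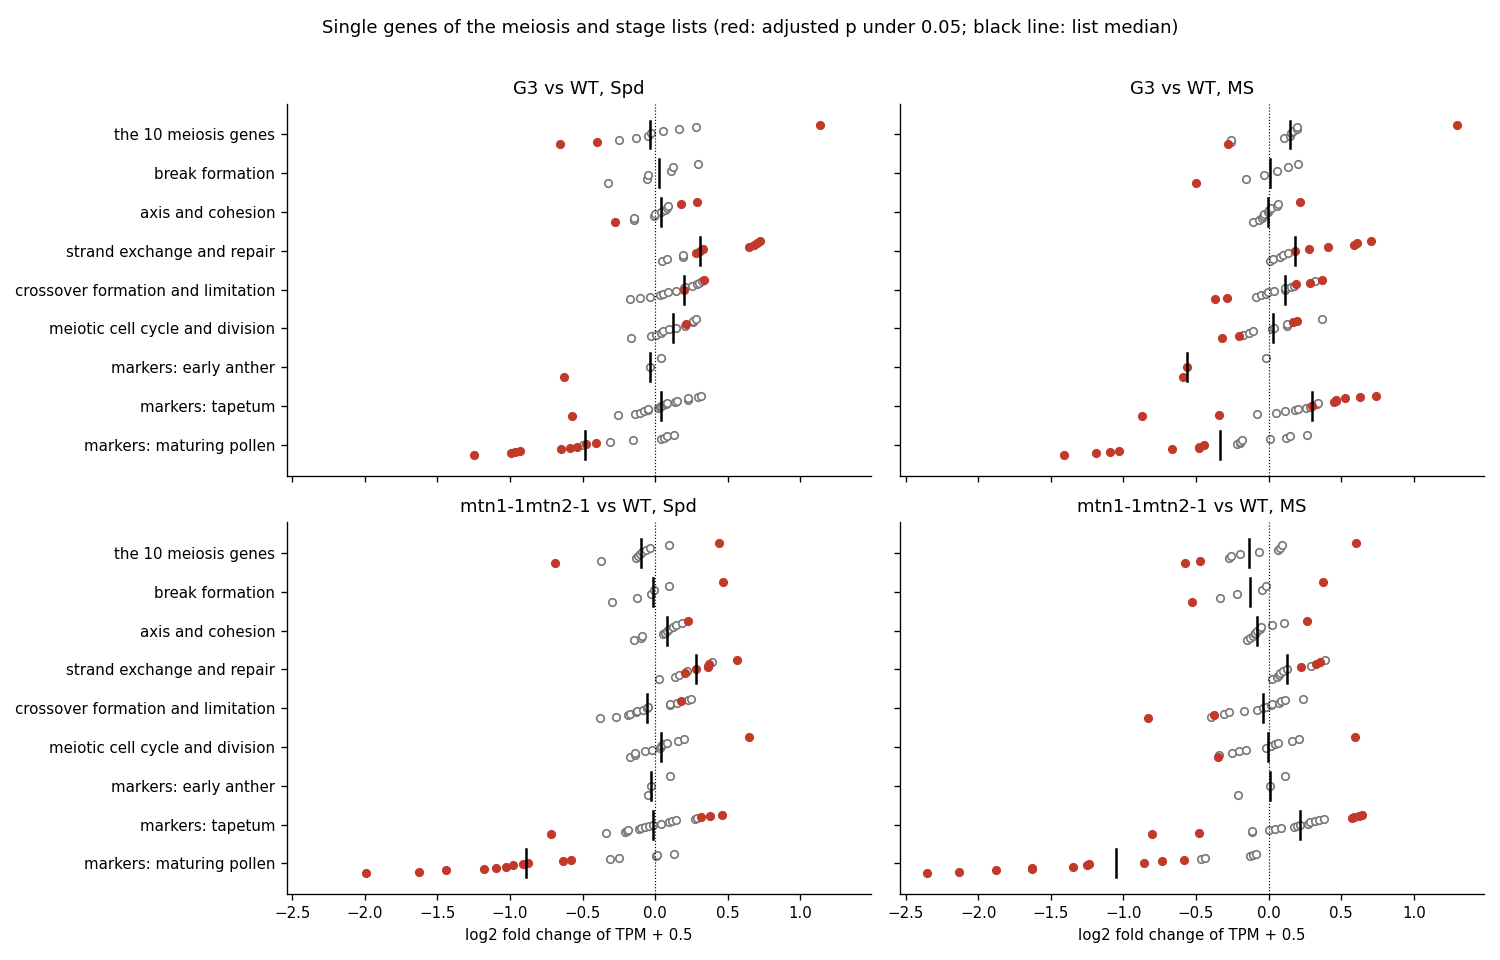
Log2 fold change of TPM + 0.5 of each gene (points) in the 10 meiosis genes, the 5 lists of other meiosis genes and the 3 lists of stage markers, for G3 against WT and mtn1-1mtn2-1 against WT on Spd and MS. Red points passed an adjusted p of 0.05 and black lines are list medians: the strand exchange and repair list has its called genes above 0 in all 4 panels, and the maturing pollen list has its called genes below 0.

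The genes whose levels over the 24 libraries were most like the mean standardized level of the 10 members were RIPK (AT2G05940), with a Pearson r of 0.818, AT5G09570 with 0.81, AT5G17210 with 0.776, AT4G24350 with 0.755 and AT1G72920 with 0.753. Within the 8 G3 libraries alone the r of RIPK was 0.746 and that of AT5G17210 0.17. Those most like ASY1 alone, a list added after the values were seen, were JMJD5, GER3, GPX6, SBE2.1 and ADH1, with r between 0.933 and 0.944. Within the 8 G3 libraries their r lay between -0.236 and 0.124, and among the other 16 libraries between -0.218 and 0.385, so the likeness is the step between G3 and the other groups. Over the 45 pairs of members r ran between -0.83 and 0.59, with a median of 0.14, and ZYP1a and ZYP1b had 0.37. SYN1 and SDS had the highest value, 0.59.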

How the data were processed

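RNA was measured by sequencing of polyadenylated RNA. Reads were processed with Trim Galore, STAR and StringTie against TAIR10, per the submitters' processing notes, which give no versions, strand setting or filter. The values used are the TPM deposited by the authors, whose bud columns sum to 980512 to 997815. The authors also deposited a table of expected counts for 37336 genes, rounded to whole numbers before use. Its totals are 75293233 to 92616214 in buds, and low values gather at multiples of 3.97 units, so 1 fragment was taken as 3.97 units. Depth was thus about 18965550 to 23329021 fragments, and the counting errors given cover counting alone. For edgeR and DESeq2 the counts were not divided by 3.97, so these tools were given larger counts than there were fragments. The effect of this on their p values was not tested.

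Groups follow the labels, read through the TPM table's column names. By correlation over 22682 genes, 8 of 24 columns of the count table matched their namesakes in the TPM table and 16 matched with WT and G3 exchanged. The lowest r of a match was 0.881, the highest r of a next best column 0.784. As MTN1 and MTN2 follow the labels in the TPM table, limma on its values is the main test, and edgeR on counts an alternative. No label says that replicates are separate cultures, so p values measure the spread between these samples; 0 of 36 replicate pairs were identical.

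Genes with at least 0.5 TPM in at least 4 of the 24 bud libraries were tested with limma 3.58.1 (R 4.3.3, trend) on log2(TPM + 0.5), with all 6 groups in 1 fit and Benjamini-Hochberg adjustment over 24004 genes in each comparison. Alternatives were pseudocounts of 0.1 and 1, no filter, median ratio scaling, only the compared groups, a replicate block, each library left out, edgeR 4.0.16 and DESeq2 1.42.0 on the counts with the TPM table's names, and edgeR with the count table's names. The fit was tested on simulated data. The 10 genes and all lists were chosen with earlier results of these data known. The text names the 10 members, the target genes MTN1 and MTN2, of the other meiosis genes the 2 largest called rises and falls of each genotype comparison, and of each marker list the 2 genes of highest mean and the called gene with the largest change, and the 5 genes with profiles most like the members' mean; some of these are given by counts only. 1 gene that this rule names is not reported here. Sequences and gene positions are from RefSeq TAIR10.1, and no deposited value was placed by coordinates. Seedling values were used for levels only.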

Additional observations from a re-analysis of the deposited data

How the results depend on the processing

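Of 110 results for single members, 16 were called by limma and 12 of these were called under every alternative run on the TPM table's names; 0 reversed. The other 4 were lost under at least 1 alternative: SDS in mtn1-1mtn2-1 against WT on MS, MSH4 in mtn1-1mtn2-1 against WT on Spd, and MSH4 and ZYP1b in G3 against mtn1-1mtn2-1 on MS. Of 94 results not called, 3 were gained, SYN1, ZYP1a and MMD1 in G3 against mtn1-1mtn2-1 on MS, with lowest adjusted p values of 0.025, 0.0343 and 0.0428, against highest values over the alternatives of 0.163, 0.322 and 0.276. The cause of these moves was not tested. Depth limits the low members most: SPO11-1 and SWI1 rest on medians of 15.9 and 14.9 fragments per library.

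For the 10 members, G3 against mtn1-1mtn2-1 on MS had 4 calls, 2 with only the compared groups, 2 by edgeR with the count table's names and 2 to 5 with single libraries left out (2 without G3 MS replicate 2 or 3 or mtn1-1mtn2-1 MS replicate 1 or 4). In mtn1-1mtn2-1 against WT on Spd there were 2 calls, 1 with only the compared groups and 1 to 2 with single libraries left out (1 without mtn1-1mtn2-1 Spd replicate 1 or WT Spd replicate 3).

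Counts over all genes moved most between the media. For Spd against MS in G3, 298 genes became 574 with only the compared groups, 700 by DESeq2, 4 by edgeR with the count table's names and 35 to 449 with single libraries left out (85, 35, 160 and 449 without MS replicates 1 to 4, 64 and 55 without Spd replicates 3 and 4). In mtn1-1mtn2-1, 13 genes became 20 with either pseudocount, 28 with no filter, 35 with median ratio scaling, 0 with only the compared groups, 25 by edgeR with either set of names, 304 by DESeq2 and 2 to 236 with any 1 of its 8 libraries left out. In WT, 20 genes became 7 and 12 with pseudocounts of 0.1 and 1, 7 with no filter, 647 with only the compared groups, 4 by edgeR, 231 by DESeq2, 244 by edgeR with the count table's names and 5 to 60 with any 1 of its 8 libraries left out. For the difference of the spermidine effect between mtn1-1mtn2-1 and WT, 6 genes became 14 with a pseudocount of 0.1, 17 with median ratio scaling, 284 by DESeq2, 89 by edgeR with the count table's names and 4 to 349 with single libraries left out (106, 349 and 44 without mtn1-1mtn2-1 MS replicates 1, 2 and 4, 158 and 244 without Spd replicates 1 and 4, 94 without WT Spd replicate 1). Between G3 and WT, 0 genes by limma became 36 with only the compared groups, 1 by edgeR with either set of names, 14 by DESeq2 and 0 to 2 with single libraries left out. Between genotypes, G3 against mtn1-1mtn2-1 had 6015 genes on MS and 3717 with only the compared groups, and 5127 on Spd and 3374 with only the compared groups. By edgeR with the count table's names, mtn1-1mtn2-1 against WT had 4450 genes on Spd in place of 7412 and 5315 on MS in place of 8966.

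Replicate numbers were not taken to pair the libraries, as the labels give no shared source and deviations of same-numbered libraries had r between -0.19 and 0.27, with 11 of 60 over 0.1. As a hint from the data, not the design, 11 of 24 libraries were closest to their own number. A replicate block turned 20 genes into 44 for Spd against MS in WT and 6 into 35 for the difference between mtn1-1mtn2-1 and WT, and gave 5 calls in place of 4 among the members for G3 against mtn1-1mtn2-1 on MS.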
